A study of Xenopus tropicalis with 192 samples.

Results

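The high CpGs described here are 1450 of the 6717 CpG sites of a targeted bisulfite sequencing table of Xenopus tropicalis, or 21.6% of the table. A site was counted as a high CpG when its median methylation fraction over 187 adult frogs lay from 0.8 to below 0.9. Sites where at least 3 frogs lay below 0.006 and at least 3 lay above 0.5 were left out, which removed 80 of the 1530 sites in that range. The methylation fraction is the share of reads at a CpG that kept a C after bisulfite treatment, and it runs from 0 to 1. Because the median over adults chose the sites, their adult level is given only as a description.

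In vertebrates most CpGs of the genome carry methyl groups on both strands. The pattern is copied by the maintenance methyltransferase Dnmt1 and its partner Uhrf1 when DNA is replicated, and it can be lost when copying is incomplete or when Tet enzymes oxidise the methyl group. A fraction between 0.8 and 0.9 means that most, but not all, DNA molecules of the tissue were methylated at that cytosine. Such CpGs have room to move in both directions, which fully methylated CpGs do not.

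DNA came from hindlimb webbing skin of 187 adults aged 269 to 3987 days (0.736 to 10.9 years) and from 5 whole tadpoles. The adults belonged to 23 labelled strains, kept in 32 tanks. Most were transgenic GFP or RFP lines, and the others were gtpbp2 F1 KO, sox3 F0, tlx3 F0, OLIG2 F1, TYR, NXR 1111, WT Superman, SUPERMAN F8 and NIGERIAN F8 frogs. Tank mates shared age and strain, with 1 adult of differing listed age in 1 tank, so frogs of a tank are not independent replicates and p-values over frogs measure the spread between frogs. The tadpoles were 3 Superman F9 WT animals at 89 days from 1 tank and 2 ZBTB14 KO animals at 177 days from another. Adults under 1 year were 19 NIGERIAN F8 frogs at 269 days, 3 Xtr.Tg(cryga:GFP)Grngr frogs at 273 days and 9 SUPERMAN F8 frogs at 332 days. The 3 frogs at 273 days carry Tadpole in their titles but are labelled as webbing, and they were kept as adults. The oldest adults were 22 Xtr.Tg(eef1a1:GFP)Krieg frogs at 3987 days from 4 tanks, a line that carries GFP under an eef1a1 promoter. All libraries came from 2 sequencing lanes. Lane 1 held 96 adults, and lane 2 held 91 adults and the tadpoles. All adults under 1 year lay on lane 2 and all adults from 3090 days on lay on lane 1, so that among the youngest and among the oldest frogs lane, strain and age cannot be told apart. Every value rests on at least 100 reads by the filter of the authors, and 0 values were missing.

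Several of the capture probes show how high CpGs sit in their surroundings. Probe sequences of 120 bases were at hand for parts of 5 chromosomes and held 693 of the high CpGs. In the sequences below, written 5′ to 3′ as listed for the v10.0 genome, the capitals mark the CG of each high CpG, and all other bases are in lower case, including CpGs of other levels. The first is shown because its CpG fell strongly in old frogs, and the second because its CpG rose in them.
chr1:32957444-32957563: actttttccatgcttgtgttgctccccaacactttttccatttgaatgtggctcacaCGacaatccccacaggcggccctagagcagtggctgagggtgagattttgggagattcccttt
chr1:33129315-33129434: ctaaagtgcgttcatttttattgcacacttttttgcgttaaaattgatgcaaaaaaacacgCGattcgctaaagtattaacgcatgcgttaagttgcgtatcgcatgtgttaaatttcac
The next is shown for a CpG that was higher in tadpoles. The one after it is shown for Chr1:36685471 inside apbb2, which was lower in tadpoles and negatively correlated with age. There 19 adults were below 0.5, and the oldest ran from 0.0101 over a median of 0.478 to 0.9. Sequence differences between frogs were not tested at this CpG.
chr1:33150550-33150669: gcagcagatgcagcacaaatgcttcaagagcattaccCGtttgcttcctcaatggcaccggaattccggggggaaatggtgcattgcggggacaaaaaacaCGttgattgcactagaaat
chr1:36685412-36685531: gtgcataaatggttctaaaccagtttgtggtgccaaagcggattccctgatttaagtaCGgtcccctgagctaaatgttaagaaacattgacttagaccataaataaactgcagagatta
A probe on chromosome 1 with a rising CpG is shown for its short repeated motifs.
chr1:81836426-81836545: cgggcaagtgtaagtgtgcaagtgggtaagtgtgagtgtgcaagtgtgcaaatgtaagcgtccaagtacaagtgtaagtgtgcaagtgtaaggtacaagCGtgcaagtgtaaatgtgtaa
A further pair comes from a tRNA gene cluster on chromosome 2, the first covering a trnad-guc gene with 10 high CpG positions, both strands counted, and the second holding a CpG that was among the strongest in both the age and the tadpole comparison.
chr2:10594039-10594158: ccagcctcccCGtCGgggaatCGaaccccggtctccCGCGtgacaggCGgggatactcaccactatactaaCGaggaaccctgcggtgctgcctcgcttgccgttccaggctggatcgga
chr2:10594192-10594311: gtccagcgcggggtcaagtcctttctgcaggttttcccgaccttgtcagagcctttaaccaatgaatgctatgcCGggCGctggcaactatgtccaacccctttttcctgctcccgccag
The last holds 3 high CpGs, among them one of the least variable of all.
chr3:36584963-36585082: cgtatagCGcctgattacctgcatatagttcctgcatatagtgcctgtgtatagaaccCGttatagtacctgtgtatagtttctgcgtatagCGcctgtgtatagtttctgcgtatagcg

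The probes with high CpGs were close to those of the whole table in base composition. Their median GC content was 36.7% and their median number of CpGs was 3, against 37.5% and 3 over all CpGs in probes and 36.7% and 2 at an adult median of 0.5 to below 0.8. Probes of CpGs at 0.95 or more had 40.0% and 7. Of the 693 high CpGs, 159 (22.9%) lay in lower-case letters of the probe table, which commonly mark repeats, against 29.2% of all CpGs in probes and 53.0% of the CpGs at 0.95 or more. The bases next to the CpG differed in the same comparison. Counted on both strands together, 12.3% of high CpGs had the context ACGT, against 9.23% of all CpGs in probes and 2.16% of those at 0.95 or more. The context GCGC was found at 3.46% of high CpGs, 5.93% of all CpGs and 13.9% of those at 0.95 or more. These are shares without a test, and many probes hold several of the CpGs. At 688 of the 693 sites the listed position fell on the G of the CG of the probe, which is the cytosine of the opposite strand. Where both strands of a CpG were measured and both were high CpGs, at 11 CpGs, the adult medians of the strands differed by a median of 0.0124. The class itself limits that difference. Over the 27 pairs with at least 1 high CpG the median difference was 0.02, and over all 104 pairs of any level 0.0134.

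The high CpGs lay on all 10 chromosomes, with 459 on chromosome 1 and 38 on chromosome 10. They fell into 982 stretches of CpGs no more than 200 bases apart, of which 722 held a single high CpG. A measured CpG lay within 200 bases of 1174 of them (81.0%), and in 33.0% of these cases the nearest one was a high CpG too. Against the RefSeq gene spans of the same genome build, 524 high CpGs (36.1%) lay inside a gene, close to the 37.7% of the whole table. They touched 333 genes, and 445 of them lay in protein-coding genes and 55 in lncRNA genes. Exons, introns and UTRs were not assigned here because only the spans of genes were at hand.

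The limits of the class are not steps in the data. At the lower limit, Chr1:32939543 and Chr8:94860878 lay just inside with adult medians of 0.8 at both, and Chr7:49746647 and Chr5:128004007 just outside with 0.79974 and 0.79971. At the upper limit, Chr7:19761372 and Chr4:24380720 lay just inside at 0.89988 and 0.89987, and Chr2:10592933 and Chr3:23088701 just outside at 0.9. In 1336 high CpGs every adult was above 0.5, and in 114 at least 1 adult was below it.

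The mean over the 1450 high CpGs declined slightly from the youngest adults to later ages and spread more widely over the frogs of the older bands. In the 31 adults of 269 to 332 days the mean per frog was 0.866 ± 0.0044 (SD, n = 31), with a lowest value of 0.859, a median of 0.865 and a highest of 0.875. In the 42 adults of 547 to 937 days it was 0.855 ± 0.0164, from 0.784 to 0.875, and in the 33 adults of 1105 to 1532 days it was 0.849 ± 0.0162, from 0.813 to 0.871. Thus the youngest adults were tightly grouped, and the older bands reached lower while their highest frogs overlapped with the young ones. The spread of a band includes differences between its tanks. Single tanks of older frogs could be as tight as the youngest band, with SDs of 0.0027 at 1105 days (n = 7) and 0.0026 at 3188 days (n = 6). Others were wider, up to 0.0225 at 841 days (n = 13). The band means were 0.854 ± 0.0094 at 1693 to 2523 days (n = 14) and 0.850 ± 0.0101 at 2860 to 2878 days (n = 21). The lowest mean, 0.835 ± 0.0177, was that of the 24 frogs of 3090 to 3583 days, and the 22 oldest frogs at 3987 days were higher again at 0.848 ± 0.0097. The decline of these band means was therefore not a steady one, and the bands differ in strain and tank. Over all CpGs of the table the band means fell at every step, from 0.829 in the youngest adults to 0.788 in the oldest. Because the members were chosen by adult level, no test is given for these means.

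**Figure D1:**
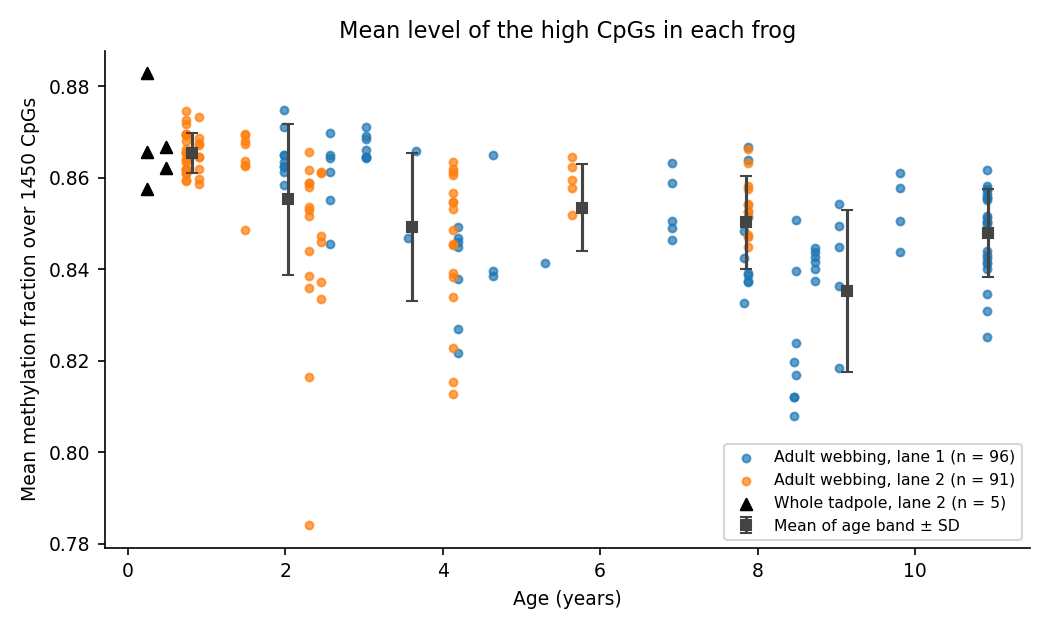
Mean methylation fraction over the 1450 high CpGs (vertical axis) against age in years (horizontal axis) for each adult on lane 1 (blue), each adult on lane 2 (orange) and each whole tadpole (black triangles); grey squares and bars give the mean and SD over the frogs of each of 7 age bands. The youngest adults lie between 0.859 and 0.875, while frogs of later bands reach down to 0.784.

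Tanks differed even at the same age. Of the NXR 1111 frogs at 1507 days on lane 2, those of one tank had a mean of 0.835 ± 0.0158 (n = 9) and those of another 0.857 ± 0.0049 (n = 8). Over all CpGs of the table these tanks differed in the same direction, with 0.802 and 0.820. The lowest tank mean, 0.809 ± 0.0095 (n = 5), belonged to Xtr.Et(CAGGS-SB10;cryga:RFP)7M8FMead frogs at 3090 days. This tank was also the lowest over all CpGs, at 0.772, so such differences were not particular to the high CpGs. The frog with the lowest mean, 0.784, was a CMV MEM GFP frog at 841 days, and it had the highest listed depth of the 187 adults. Over all CpGs its mean was 0.743. Its part in the results is given with the age correlations.

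Among single high CpGs the SD over adults had a median of 0.0359, and 86 of them exceeded 0.1. This spread was larger than at CpGs of 0.95 or more (median SD 0.0151) and smaller than at CpGs of 0.5 to below 0.8 (0.0697). Within tanks the median SD was 0.0287 and between tanks it was 0.0208, so that a median of 36.4% of the variance lay between tanks. Counting error alone would give an SD of 0.0144 at the mean depth listed per frog and of 0.0349 at the minimum of 100 reads. At 364 sites (25.1%) the within-tank SD was above even the counting SD that the site's own mean would give at 100 reads. The same held for 57.75% of CpGs at 0.5 to below 0.8, 12.81% at 0.9 to below 0.95 and 7.97% at 0.95 or more. The counts behind single values are not known, so the counting SDs are averages and not limits for one value.

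The most variable high CpG, Chr5:102107047, ranged from 0.0744 to 0.926 with an SD of 0.285, and 70 adults were below 0.5 there. Chr5:52772660 lies inside tmem181, which encodes a transmembrane protein, and ranged from 0.00474 to 0.951 (SD 0.247). Chr1:113151434 ranged from 0.0189 to 0.953 (SD 0.233). Chr6:115230719 lies inside rp1, a gene named for a microtubule-binding protein of photoreceptors, and ranged from 0.00451 to 0.930 (SD 0.209). At these sites some frogs were far below 0.5 although the median frog was above 0.85, and sequence differences between frogs were not tested. In all, 21 high CpGs had at least 1 value below 0.006, among them Chr5:52772660 and Chr6:115230719. The study's mixture filter, rerun here, removes only sites with such a value, and it removed 21 high CpGs. The paper uses it against sites with separate methylation levels, which it calls likely germline C to T mutations. The 21 were kept in the class here. At the other end, Chr7:106594526 in the lncRNA gene LOC116412469 ranged only from 0.832 to 0.898 (SD 0.0140), which equals the counting SD expected at the listed depth. Chr3:36585056, Chr6:130886138 and Chr6:126164720 had SDs from 0.0153 to 0.0155.

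Neighbouring high CpGs varied together. Over the adults, pairs 2 to 10 bases apart had a median Pearson correlation of 0.741 (76 pairs). The median was 0.613 at 11 to 50 bases, 0.440 at 51 to 100 bases and 0.282 at 101 to 200 bases. Pairs on different chromosomes had a median of 0.169. The points of each pair share frogs, libraries and depth, and the values are given as a description.

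The main question put to these sites was whether their methylation changed with age. The paper chose its probe regions for CpGs correlated with age in an earlier whole-genome study of webbing skin. The shares below, of high CpGs and of all CpGs, therefore hold for a panel chosen that way and not for the genome. Over the 187 adults, 582 high CpGs (40.1%) were negatively correlated with age at an adjusted p below 0.001 (Spearman correlation, Benjamini-Hochberg over all 6717 CpGs), where 33.3% of all CpGs were called in this direction. Another 81 (5.59%) were positively correlated, where 5.52% of all CpGs were called, so the positive share was that of the table. The median correlation was −0.20 over the high CpGs and −0.17 over all CpGs. Among the classes of adult level, the negative share was 51.0% at 0.5 to below 0.8, 40.1% in the high CpGs, 22.5% at 0.9 to below 0.95 and 13.6% at 0.95 or more. Below 0.5 it was 31.6%, with a positive share of 24.9%. The median SD over adults fell from 0.0697 to 0.0151 over the 4 classes from 0.5 up and was 0.0697 below 0.5 as well, and its part in the shares was not tested. The plot of the age correlations shows the shift toward values from −0.5 to −0.25.

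**Figure D2:**
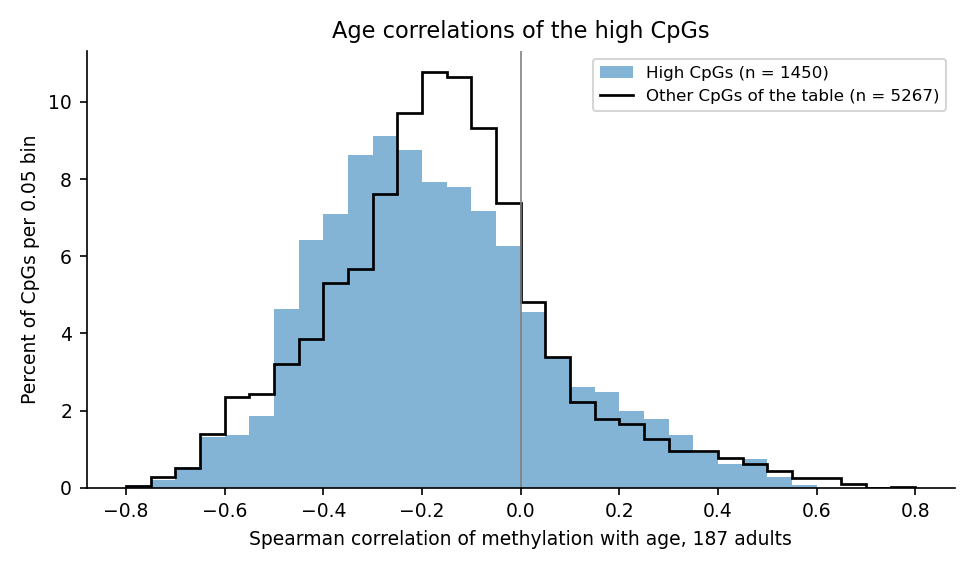
Distribution of the Spearman correlation of methylation with age over 187 adults (horizontal axis), as the percent of CpGs in each bin of 0.05 (vertical axis), for the 1450 high CpGs (filled) and the 5267 other CpGs of the table (line). Both lie mostly below 0, with medians of −0.20 over the high CpGs and −0.17 over all 6717 CpGs.

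Among the 582 falling CpGs the median of the means was 0.877 in adults under 1 year and 0.842 in the oldest adults, and the median change was −0.028, with 60 sites falling by more than 0.1. Called or not, 75 of the 1450 high CpGs and 791 of all 6717 CpGs fell as far. Such falls were thus a smaller share of the high CpGs than of the table. The table includes 487 CpGs of any level that the rule on frogs below 0.006 and above 0.5 leaves out. Their part in this difference was not tested. The 81 rising CpGs moved from a median of 0.820 to 0.885, with a median change of 0.054. Of all high CpGs, 759 (52.3%) changed by less than 0.02 between the youngest and the oldest adults, as did 57.8% of all CpGs.

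The calls over frogs depend on the unit. Over the means of 32 adult tanks at the same threshold, 13 high CpGs were negative and 2 positive (0.938% and 0.342% of all CpGs). At an adjusted p below 0.05 they were 200 and 34, where 11.6% and 2.83% of all CpGs were called. Within lane 1 alone, 175 were negative and 44 positive, with 12.7% and 2.95% of all CpGs called. Within lane 2 alone, 330 were negative and 52 positive, with 17.2% and 2.99% of all CpGs called. On lane 1 the negative share of the high CpGs, 12.1%, was no larger than that of the table, and the larger share over all frogs was seen on lane 2 (22.8%). Without the frog of the lowest mean, 600 were negative and 78 positive, against 582 and 81 with it. The shares of all CpGs without this frog are not given, so these counts show only how the calls moved.

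The most negative correlation was at Chr6:88833379, 63848 bases from the nearest gene span. Its fraction in adults under 1 year was 0.868 at the lowest, 0.890 at the median and 0.922 at the highest, and in the oldest adults 0.740, 0.821 and 0.869. The groups overlapped only at the edge, between 0.868 and 0.869. The Spearman correlation was −0.757 (adjusted p = 6.29e-33) and Pearson's r was −0.669, each with a permutation p of 1e-05, the smallest that 100000 permutations can give. Without 2 of the 22 oldest frogs, over all such pairs, r ran from −0.683 to −0.656. Over tank means the Spearman correlation was −0.751. Of the 12 CpGs named in each direction together, 7 were no longer past the threshold over tank means.

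Chr7:49738297, 1840 bases from LOC105947760, gave the strongest relation over tanks, with a Spearman correlation of −0.820 over tank means and −0.734 over frogs (adjusted p = 4.36e-30). In the youngest adults it ran from 0.781 over a median of 0.858 to 0.893, and in the oldest from 0.755 over 0.775 to 0.802. Chr5:32153935, 32584 bases from the amino acid transporter gene slc1a4, fell from a mean of 0.888 ± 0.017 to 0.806 ± 0.0389 (Spearman correlation −0.735, adjusted p = 3.18e-30). Both falls were larger than the SD in either group. The oldest were all Xtr.Tg(eef1a1:GFP)Krieg frogs. Those of that strain at 2523 days had means of 0.815 ± 0.013 at Chr7:49738297 and 0.802 ± 0.0339 at Chr5:32153935. At the second site the mean was thus no lower in the oldest frogs of the strain.

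Chr8:15643568 lies inside the overlapping spans of LOC101733480 and LOC108645372 and fell from 0.907 ± 0.0102 to 0.868 ± 0.0226 (Spearman correlation −0.678). All 3 high CpGs of LOC101733480 were called negative, as were all 5 of its CpGs, and the site cannot be assigned to one of the overlapping genes. Chr8:61488182 fell from 0.902 ± 0.0268 to 0.793 ± 0.0483 (Spearman correlation −0.669). Chr2:10594271, in the tRNA cluster sequence printed above, fell from 0.883 ± 0.00932 to 0.836 ± 0.0168 (Spearman correlation −0.667). Over tank means the last site had a Spearman correlation of −0.589. All 6 had negative correlations on each lane.

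The most positive correlation was at Chr7:49746279 in the lncRNA gene LOC108648205, within 8 kb of the falling Chr7:49738297. Its fraction ran from 0.739 over a median of 0.787 to 0.835 in adults under 1 year and from 0.815 over 0.851 to 0.898 in the oldest. The Spearman correlation was 0.592 over frogs (adjusted p = 1.51e-17) and 0.781 over tank means. On lane 2 alone the Spearman correlation was 0.277 with an adjusted p of 0.0254, which is not below the threshold, while on lane 1 it was 0.688.

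Chr8:118110221, 725 bases from LOC116407328, showed the widest change among the 6 most positive sites. It ran from 0.576 over 0.673 to 0.911 in the youngest adults and from 0.839 over 0.889 to 0.912 in the oldest (Spearman correlation 0.503, adjusted p = 2.86e-12). Its means in the 3 tanks of young adults, each of another strain, were 0.824, 0.777 and 0.647. The oldest were all of 1 strain and on the other lane, so that strain, lane and age cannot be told apart here. Young frogs covered a broad range, in part between tanks, and the oldest were all near its upper end. Chr6:126164802 and Chr4:113375769 showed the same form, with SDs of 0.0603 and 0.0707 in young adults against 0.0117 and 0.0119 in the oldest, and means that rose from 0.823 to 0.935 and from 0.807 to 0.916. Chr1:81835528 rose from 0.763 ± 0.0375 to 0.867 ± 0.0246. Chr1:81836526, within 1 kb of it and in the repetitive probe printed above, rose from 0.864 ± 0.0212 to 0.912 ± 0.046. Over tank means it had a Spearman correlation of 0.371 (permutation p = 0.037), so its relation was weaker between tanks than between frogs.

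**Figure D3:**
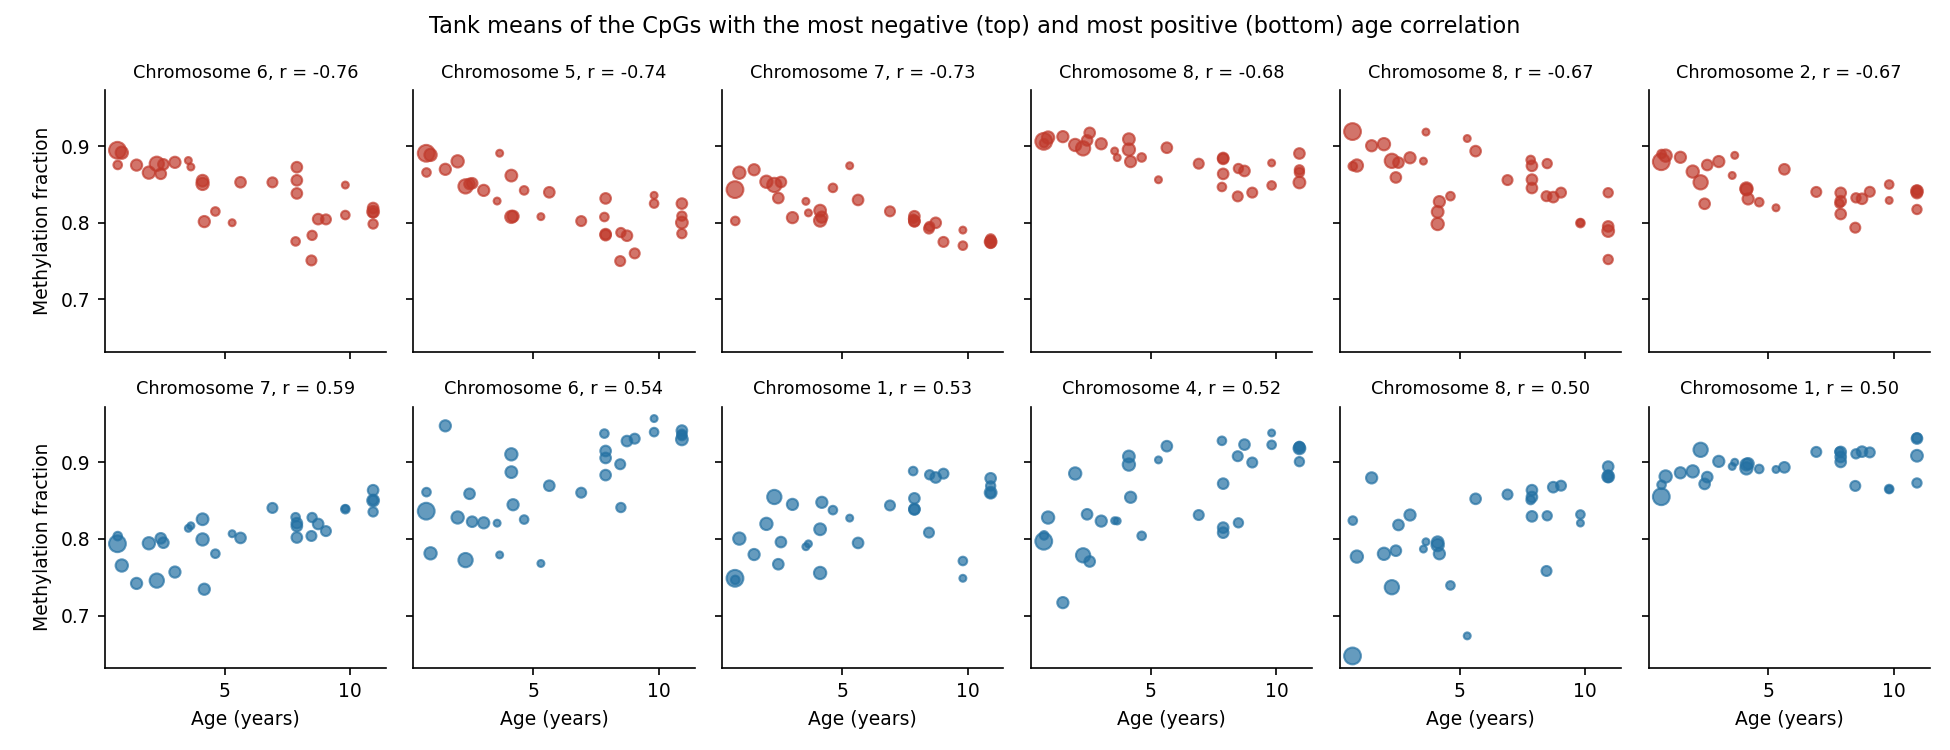
Methylation fraction (vertical axis) as the mean of each of 32 adult tanks against age in years (horizontal axis), with larger circles for tanks with more frogs; r is the Spearman correlation over 187 adults. The upper row shows, from left to right, Chr6:88833379, Chr5:32153935, Chr7:49738297, Chr8:15643568, Chr8:61488182 and Chr2:10594271, and the lower row Chr7:49746279, Chr6:126164802, Chr1:81835528, Chr4:113375769, Chr8:118110221 and Chr1:81836526; the tank means fall with age in the upper row and rise in the lower, with more scatter in the lower.

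One region of chromosome 1 held 286 of the high CpGs (19.7%) and 18% of all CpGs. It is a run of 1207 measured CpGs with no gap above 100 kb, from 32235673 to 33481903, and it spans 1246 kb. Annotation is sparse there: 14 of the 286 lay inside a gene span, 11 in the lncRNA gene LOC108645172, 2 in stim2, a calcium sensor of the endoplasmic reticulum, and 1 in LOC101730384. In this region 143 high CpGs (50.0%) fell with age and 13 rose, against 439 (37.7%) and 68 of the 1164 others. Of all 1207 CpGs of the region, 35.8% fell and 4.8% rose.

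Of the 31 high CpGs that were lower by more than 0.2 in the oldest than in the youngest adults, 15 lay there and 19 on chromosome 1. These 31 are 2.14% of the high CpGs, where 7.31% of all CpGs fell as far. Within the region the shares were 5.24% of the high CpGs and 8.29% of all CpGs. All CpGs include those that the class rule leaves out, 54 of them in this region. Of the region's 867 other CpGs without those, 45 fell as far, against 15 of the 286 high CpGs. Such falls were thus not particular to the high CpGs. Over those 31, the median of the means was 0.871 in the youngest adults and 0.562 in the oldest. In 5 Xtr.Tg(eef1a1:GFP)Krieg frogs at 2523 days it was 0.678. The oldest frogs are all of that strain and the youngest are not, so strain and age cannot be told apart in this difference. At Chr1:33052307 the youngest adults lay between 0.71 and 0.903 and the oldest between 0.246 and 0.608, without overlap, with the Xtr.Tg(eef1a1:GFP)Krieg frogs at 2523 days from 0.543 to 0.621. Chr1:33169865 went from a mean of 0.862 in the youngest to 0.636 in the Xtr.Tg(eef1a1:GFP)Krieg frogs at 2523 days and 0.433 in the oldest. Neighbours in a probe differed in the size of the change. Chr1:32957502 had means of 0.862 and 0.417 in the youngest and oldest adults, while Chr1:32957518, 16 bases on in the same probe and of lower adult level, had 0.794 and 0.752, and both were called negative.

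**Figure D4:**
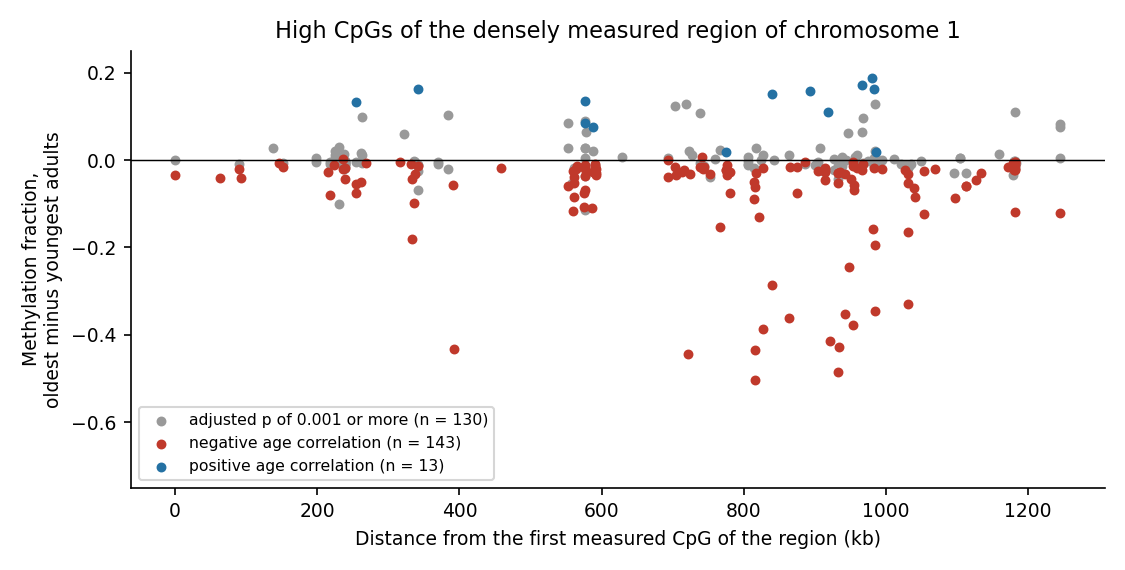
Difference in mean methylation fraction between the 22 oldest and the 31 youngest adults (vertical axis) for the 286 high CpGs of the densely measured region of chromosome 1, against the distance in kb from its first measured CpG (horizontal axis); colours mark negative (143) and positive (13) age correlations at an adjusted p below 0.001. Falls of more than 0.2 lie beside sites with little change, and 14 of the 15 sit from 721.8 to 1032 kb into the region.

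Comparing the Xtr.Tg(eef1a1:GFP)Krieg strain with itself holds strain and lane constant. Between 22 frogs at 3987 days and 5 at 2523 days, limma on the log2 logit of the fractions called 34 high CpGs higher in the older frogs and 37 lower at an adjusted p below 0.05, where 2.89% and 3.89% of all CpGs were called. These shares, 2.34% and 2.55%, were no larger than those of the table, which includes the CpGs that the class rule leaves out. Among the neighbouring classes, the higher share was 6.9% at 0.5 to below 0.8 and 0.586% at 0.9 to below 0.95. The lower share was 3.49% and 1.76% there, so the high CpGs lay between these classes. The 5 younger frogs came from 1 tank and the older from 4, and over tank means 11 were higher and 1 lower (1.06% and 1.58% of all CpGs), with the lone tank assumed to vary like the other tanks. In the dense region of chromosome 1 lay 15 of the 34 and 14 of the 37. Of the 194 higher and 261 lower CpGs of the whole table, 54 and 80 lay in that region. Of the CpGs named for age, Chr7:49738297, Chr6:126164802 and Chr4:113375769 were called over frogs, and the others were not. At Chr2:10594271 the means were 0.840 at 2523 days and 0.836 at 3987 days, and at Chr1:81836526 they were 0.913 and 0.912.

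The 4 most clearly higher sites all lay in that region. Chr1:33129377, printed above, was at 0.792, 0.814, 0.822, 0.827 and 0.787 in the frogs at 2523 days and from 0.933 over a median of 0.95 to 0.963 in those at 3987 days. The groups were apart, with a difference of 2.15 on the log2 logit scale (adjusted p = 1.98e-13, limma; 0.00754 over tank means). Adults under 1 year of other strains ran from 0.621 to 0.963 at this site, across the values of both groups. Chr1:33075123, Chr1:32576891 and Chr1:33202832 had means of 0.763, 0.813 and 0.795 in the younger and 0.935, 0.921 and 0.95 in the older frogs.

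Among the lower sites, Chr7:49738334 was at 0.879, 0.887, 0.888, 0.909 and 0.878 in the younger frogs and from 0.798 over 0.819 to 0.844 in the older. The groups did not overlap (log2 logit difference −0.80, adjusted p = 6.95e-09), and over tank means the adjusted p was 0.0902. This site lies 37 bases from Chr7:49738297, which had the strongest tank relation among the CpGs named for age. Its own correlation with age over all adults was −0.69. Chr1:32957502 was at 0.608, 0.709, 0.680, 0.663 and 0.637 in the younger and from 0.269 over 0.424 to 0.636 in the older frogs, with a small overlap, and over tank means its adjusted p was 0.0521. Chr8:36122364 and Chr3:152876534 had means of 0.762 and 0.864 in the younger and 0.640 and 0.752 in the older frogs. Their adjusted p over tank means was 0.0691 and 0.143, so none of the 4 lower sites was called there.

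The second strain with 2 ages on lane 1 gave another picture. Between 7 Xtr.Tg(otx2:GFP)Kellr frogs at 1532 days and 7 at 1105 days, 699 high CpGs were lower in the older frogs and 52 higher, where 51.4% and 3.14% of all CpGs were called by limma. The mean over the high CpGs was 0.867 ± 0.0027 in the younger and 0.839 ± 0.0108 in the older frogs. Each age is 1 tank, so that tank and age cannot be told apart, and the tanks of NXR 1111 frogs differed at a single age as well. The lower share of 48.2% was close to that of the table.

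The tadpoles had nearly the same mean over the high CpGs as young adults, and differences in both directions at single sites. The tadpole means were 0.866, 0.858 and 0.883 at 89 days and 0.867 and 0.862 at 177 days, against 0.859 to 0.875 in adults under 1 year. Whole tadpoles hold many tissues and webbing holds few, so that tissue and stage cannot be told apart. By limma, 250 high CpGs were higher in tadpoles and 158 lower, where 18.2% and 18.3% of all CpGs were called. The higher share of 17.2% was close to the table, and the lower share of 10.9% was below it. The median difference was 0.056 at CpGs of 0.5 to below 0.8, 0.0045 in the high CpGs and −0.011 at 0.95 or more. These classes were set by the adult median, which includes the young adults compared here. Sorting by that level can itself give such an order, and the order was not tested.

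The tadpoles came from 2 tanks and the young adults from 3, so the counts have few independent units. With tank as a block, 83 were higher and 71 lower (11% and 5.46% of all CpGs). Over tank means limma called 0 in either direction, with 77 higher and 56 lower at an unadjusted p below 0.05. At that unadjusted threshold 739 of all CpGs (11%) passed, both directions together. Without the third tadpole at 89 days 139 were higher, and without the second 100 were lower. The shares of all CpGs without these animals are not given.

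**Figure D5:**
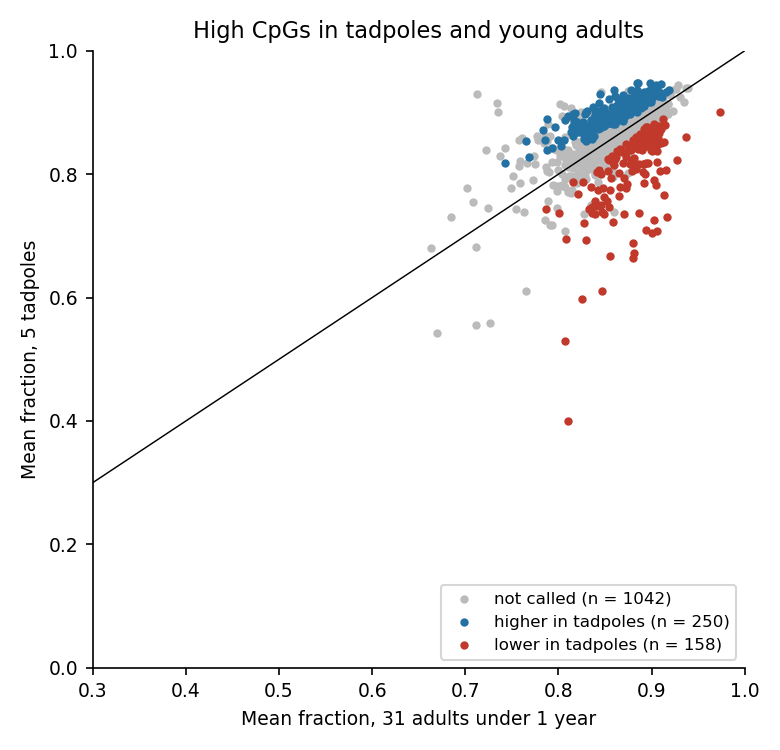
Mean methylation fraction in 5 whole tadpoles (vertical axis) against the mean in 31 adults under 1 year (horizontal axis) for the 1450 high CpGs, with sites called higher (blue, 250), called lower (red, 158) and not called (grey) by limma at an adjusted p below 0.05; the line marks equal values. The higher sites lie close above the line and the lower ones reach further from it, down to a tadpole mean of 0.400.

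The clearest higher site was Chr2:10594271 beside trnad-guc, one of the 6 most strongly falling sites with age. Its tadpole values were 0.933, 0.940, 0.949, 0.925 and 0.911, all above the young adults, which ran from 0.862 over 0.883 to 0.903. The difference of the means was 0.0486 (adjusted p = 6.5e-09; 8.61e-06 with tank as a block). Chr2:10592740, 11 bases from trnai-aau in the same cluster, was at 0.915, 0.924, 0.943, 0.909 and 0.888 in tadpoles and from 0.795 over 0.844 to 0.885 in young adults. Again no tadpole overlapped with the adults. Chr1:33150652, printed above, and Chr3:20437310 had tadpole means of 0.9 and 0.902 against 0.830 at both in young adults.

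The lower sites showed larger differences. Chr7:19744084 in LOC101733213 was at 0.658, 0.636 and 0.589 in the tadpoles at 89 days and 0.808 and 0.846 at 177 days, against 0.860 to 0.944 in young adults. Both kinds of tadpole were below every young adult. Chr8:23636216 in slc6a8, the creatine transporter gene, was at 0.672, 0.632 and 0.702 at 89 days and 0.846 and 0.758 at 177 days, against 0.806 to 0.906. Chr1:36685471 in apbb2, which encodes an adaptor that binds the amyloid precursor protein, was at 0.669, 0.586 and 0.643 at 89 days and 0.910 and 0.822 at 177 days, against 0.877 to 0.932. At these the animals at 177 days reached or neared the adult range, and age, strain and genotype of the tadpoles cannot be told apart. Chr5:144480527 had more even tadpole values, 0.804, 0.777, 0.809, 0.812 and 0.828, against 0.866 to 0.947.

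The lowest tadpole mean of all, singled out after its values were seen, was at Chr8:111154889 in meis2, a homeobox gene of limb and neural development. It was at 0.092, 0.104 and 0.0916 at 89 days, and 0.876 and 0.838 at 177 days (adjusted p = 4.45e-05, limma). Young adults ran from 0.704 over 0.814 to 0.888, so only the animals at 89 days were apart.

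The 3 stretches with the most high CpGs, 16, 15 and 12, lay at tRNA genes, short genes transcribed by RNA polymerase III, and a stretch of the dense region of chromosome 1 also held 12. They are also among the stretches with many measured CpGs, 58, 56 and 77. Of the 1450 sites, 44 (3.03%) lay within 1000 bases of an annotated tRNA gene, against 2.86% of all CpGs, and 43 of the 44 were in a pair of places. On chromosome 2, from 10592706 to 10594271, 28 high CpGs lay in and around 2 copies each of trnai-aau and trnad-guc, and 14 of them inside a tRNA gene. On chromosome 6, from 130885921 to 130886517, 15 lay around trnal-uag. Over all 44, 14 fell and 2 rose with age, where 34 and 2 of the 192 CpGs near tRNA genes were called and 33.3% and 5.52% of the whole table, and the median SD over adults was 0.0274. The copies of a tRNA gene are nearly alike, so reads may have been shared between them, and these values are uncertain to that extent. In the second tRNA probe printed above, Chr2:10594229 and Chr2:10594230, the strands of one CpG of lower level, had correlations of −0.594 and −0.616, while Chr2:10594199 and Chr2:10594201 upstream had 0.15 and −0.18. The age correlation thus differed among CpGs of a single probe.

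On chromosome 8, 19 of 106 high CpGs (17.9%) rose, where 8.77% of all its CpGs did. On the other chromosomes the rising share ran from 2.04% to 6.82% of high CpGs and from 2.16% to 9.51% of all CpGs. On chromosome 4, 72 of 140 (51.4%) fell, where 45% of all its CpGs did, and on chromosome 1, 220 of 459 (47.9%), where 37.3% of all did. Within genes, 5 of the 6 high CpGs in LOC116406642 and 3 of the 5 in the lncRNA gene LOC116406881 rose, both on chromosome 8, where 6 of 8 and 4 of 8 of all CpGs in these genes did. In LOC108645172, 7 of 11 high CpGs and 11 of all 25 CpGs fell. On chromosome 4, 6 of 9 high CpGs and 12 of all 31 CpGs fell in LOC100492865, and 4 of 4 and 6 of 6 in LOC100490567. Neighbouring sites are not independent, and no test of the differences between chromosomes or genes was run.

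Gene lists made from symbols held few of the high CpGs. Their counts are given beside the 33.3% and 5.52% of all CpGs called negative and positive. Among the high CpGs themselves these shares were 40.1% and 5.59%. Of 22 sites in cell adhesion and axon guidance genes, 10 fell and 2 rose, with a median correlation of −0.25. The largest fall was at Chr5:110655760 in nlgn1, a postsynaptic adhesion protein, from a mean of 0.837 ± 0.0513 in adults under 1 year to 0.588 ± 0.198 in the oldest (Spearman correlation −0.54), and the oldest frogs themselves spread from 0.372 to 0.853. Rises were seen in nrxn3, a presynaptic partner of neuroligins, from 0.842 to 0.888, and in ntm, a neural adhesion protein, from 0.783 to 0.828.

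Of 10 sites in ion channel and neurotransmitter receptor genes, 5 fell and 0 rose. Among the falls were sites in htr2a, grm8 (whose site also lies in LOC105946844), kcnab1 and ryr3, and the largest fall was in kcnab1, a potassium channel subunit, from 0.885 ± 0.032 to 0.812 ± 0.0599. Of 3 sites in chromatin genes, those in uhrf2, a relative of the maintenance factor Uhrf1, and arid1a, a subunit of the BAF remodelling complex, fell from 0.885 to 0.860 and from 0.816 to 0.793. Of 7 sites in epidermis and extracellular matrix genes, 3 fell and 2 rose. Those that fell were in adamts19, itga11, a collagen-binding integrin, and krt62, a keratin, the last from 0.834 ± 0.0297 to 0.802 ± 0.0335. Both rises were in adamts17, an extracellular protease, at sites 64 bases apart, from 0.823 to 0.887 and from 0.774 to 0.834. Of 5 sites in developmental transcription factor genes, the one in lhx1 fell and the one in meis2 rose. The 3 sites in zinc finger genes were not called.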

How the data were processed

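Methylation of captured regions was read by bisulfite sequencing in webbing of 187 adults and in 5 whole tadpoles. The authors trimmed reads with fastp, aligned them with BiSulfite Bolt against genome v10.0, used SAMtools 1.11 per the submitters' processing notes, kept CpGs with at least 100 reads in all frogs and deposited 1 methylation fraction per CpG and frog. Columns named by digits were recorded as another unit for technical reasons, and all deposited columns hold fractions from 0 to 1. Read counts of single values were not used here, so no interval is given.

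Age correlations are Spearman correlations over adults at all 6717 CpGs, adjusted after Benjamini-Hochberg and called below 0.001. Tadpoles against adults under 365 days, and frogs of 1 strain at 2 ages on 1 lane, were compared by limma 3.58.1 (R 4.3.3), taking fractions to the log2 logit after an offset of 0.001 and calling sites below 0.05. The other steps ran in Python 3.11.15 under scipy 1.17.1 and numpy 2.4.6, besides scikit-learn 1.9.0, pandas 2.3.3 and matplotlib 3.10.9. Both tests were tested on simulated data, with values drawn or shuffled over frogs independently of tank. These runs therefore cannot say how the calls over frogs behave where tanks differ. Tank and lane came from the study's sample list. That list also gave the mean depth per frog, which was used for counting SDs, for a partial correlation and to place 1 frog. Genes are spans of RefSeq assembly UCB_Xtro_10.0, and probe sequences are those the study designed.

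The members and lists were chosen with earlier results of these data known. CpGs are named, at most 1 per stretch, by the 6 most negative and 6 most positive age correlations, the 4 highest and 4 lowest SDs, the 4 largest moderated statistics per direction for tadpoles and for the Xtr.Tg(eef1a1:GFP)Krieg strain, the limits of the class, the leading stretches and 6 lists of gene symbols. The other sites named, those with the largest falls, the neighbours in printed probes and the genes with several calls, were chosen after their values were seen. Alternatives concerned tanks, lanes, thresholds, scales, filters, the choice of members and left-out frogs. One gene of the lists is counted but not reported here by name.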

Additional observations from a re-analysis of the deposited data

Results flagged for a closer look

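In the tank of 7 TYR frogs at 547 days, the frog with the lowest mean over the high CpGs, 0.8485, stood apart from the others, which ran from 0.8626 to 0.8695. The gap was 0.670 of the range of the tank. Of 39 groups of 4 to 10 animals looked at in this way, among them tanks, the tadpoles and single CpGs, this was the only one, where chance gives about 1 in 20.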

How the results depend on the processing

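The direction of the age correlation held at all 12 named CpGs under every alternative run. These were chosen as the most extreme in the same data. Counts could not be scored as reversed, and 29 summary values moved while 106 stayed. The larger negative share of the high CpGs, 40.1% against 33.3% of the table, was not seen throughout. Over tank means it was 0.897% against 0.938%, and 13.8% against 11.6% at a threshold of 0.05. On lane 1 it was 12.1% against 12.7%, and on lane 2 22.8% against 17.2%. Over tank means 13 high CpGs were negative and 2 positive. On lane 1 alone these counts were 175 and 44, and on lane 2 alone 330 and 52. With the members chosen on one lane and the age correlation taken on the other, the sets were different ones. Of 1511 sites chosen on lane 1, 315 and 51 were called on lane 2. Of 1417 chosen on lane 2, 172 and 37 were called on lane 1. Where no share of all CpGs is given above for a setting, a count shows only how the number called moved. At a threshold of 0.05, 142 were positive, and with 1 site per stretch, chosen after seeing the data, 46 of 982 were. For tadpoles, tank as a block gave 83 higher and 71 lower. Limma over tank means gave 0 and 0. At an unadjusted p below 0.05 it gave 77 and 56, where 11% of all CpGs passed in both directions together. A threshold of 0.001 gave 66 and 59, and leaving out each tadpole gave 139 to 297 and 100 to 183. For the Xtr.Tg(eef1a1:GFP)Krieg strain, tank as a block gave 22 lower, tank means 11 higher and 1 lower, and a threshold of 0.001 gave 18 and 13. Without the dense region of chromosome 1, chosen after seeing the data, 19 and 23 were left. Leaving out each frog at 2523 days gave 27 to 37 higher and 26 to 38 lower. For the Xtr.Tg(otx2:GFP)Kellr strain a threshold of 0.001 left 3 higher and 64 lower, and leaving out each frog at 1105 days gave 42 to 59 and 639 to 685. A block or tank means could not be fitted there, with 1 tank per age. The mean over high CpGs differed by −0.0176 between the oldest and youngest adults, and by −0.0213 to −0.0114 under its alternatives. No paired analysis was possible because the labels give no replicate numbers shared between groups. The minimum of 100 reads and the unknown depth of single values limit differences of a few hundredths at single frogs.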
